A study of Chlamydomonas reinhardtii with 16 samples.

Results

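Copper supply and lack of oxygen alter an overlapping set of genes in the green alga Chlamydomonas reinhardtii, and 10 of them are described here across strain, light and biliverdin. They are FDX5 (Cre17.g700950), CYC6 (Cre16.g651050), CTR1 (Cre13.g570600), CTR2 (Cre10.g434350), HYDA1 (Cre03.g199800), HYDA2 (Cre09.g396600), HYDEF (Cre06.g296750), HYDG (Cre06.g296700), PFL1 (Cre01.g044800) and HCP4 (Cre09.g391450). They were taken by identifier from a table of 17301 genes, 1 row for each. The names belong to the selection, since neither the deposited table nor the RefSeq table used here pairs identifiers with symbols. Of the 10 genes, 9 passed the filter on low values (1 RPKM or more in at least 2 libraries), as did 13972 genes in all, and HCP4 did not.

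RNA was sequenced from 2 strains, the 4A+ wild type and hmox1, a heme oxygenase mutant. All cultures grew in the dark at 22 C on acetate medium (TAP) with 0.5% methanol, either alone or with 0.1 mM biliverdin IXα (BV), the bilin released from heme by heme oxygenase. Cells were harvested in the dark, or once white light (150 µmol photons per m2 and s) had been on for 30 min. These 3 factors give 8 groups of 2 libraries each, with 10213385 to 43414139 reads in genes per library. Whether both libraries of a group stem from separate cultures is not in the labels, and p-values therefore reflect the spread between libraries only, which may be technical. The mutant is a single strain in these labels, and its own mutated transcript could not be checked, since no identifier is paired with it here. The 2 libraries of wild type in light with BV differed most from each other, with a median SD over genes of 0.120 on the log2 scale against 0.053 to 0.076 in the other groups.

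In this alga, copper deficiency is sensed through the transcription factor CRR1, which turns on copper uptake and the genes that let the cell do without copper proteins. CYC6 encodes cytochrome c6, the heme protein that replaces the copper protein plastocyanin in photosynthetic electron transport, and CTR1 and CTR2 encode copper transporters of the plasma membrane. Oxygen lack also turns on CYC6, together with fermentation. FDX5 is a ferredoxin of dark-grown and anoxic cells. HYDA1 and HYDA2 are the iron-iron hydrogenases, HYDEF and HYDG build their active site, PFL1 is pyruvate formate-lyase, and HCP4 is a hybrid-cluster protein. Neither copper nor oxygen supply is given by the labels as a factor of these groups.

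Levels are given as RPKM, reads scaled to the length of the gene and to the size of the library, which allows genes to be compared. Differences between groups are differences of the mean of log2(RPKM + 1), fitted with limma to all 13972 tested genes, and a gene is called changed at an adjusted p (Benjamini-Hochberg) under 0.05. The pseudocount of 1 shrinks the differences of low genes. RPKM is a share of each library, so the value of a gene can also move because other transcripts moved. RNA came from whole cultures, so fewer cells with a transcript and less of it per cell cannot be told apart.

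FDX5 ran from 8.13 to 550.7 RPKM over the 16 libraries. In wild type without BV the FDX5 level was 9.42 and 11.7 RPKM in the dark and 8.72 and 8.13 RPKM in light. In wild type with BV it was 57.2 and 62.7 RPKM in the dark and 418.6 and 357.3 RPKM in light. In hmox1 it was 141.1 and 134.0 RPKM in the dark, 83.0 and 77.9 RPKM in light, 272.6 and 265.3 RPKM in the dark with BV, and 524.4 and 550.7 RPKM in light with BV. No 2 groups next to each other in the order of means overlapped, and the order from lowest to highest was wild type in light, wild type in the dark, wild type in the dark with BV, hmox1 in light, hmox1 in the dark, hmox1 in the dark with BV, wild type in light with BV, and hmox1 in light with BV. Even without BV, both hmox1 groups lay above wild type fed BV in the dark. Over the 12 comparisons of 2 groups given below, the groups did not overlap for 35.6% to 91.1% of all tested genes.

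**Figure D1:**
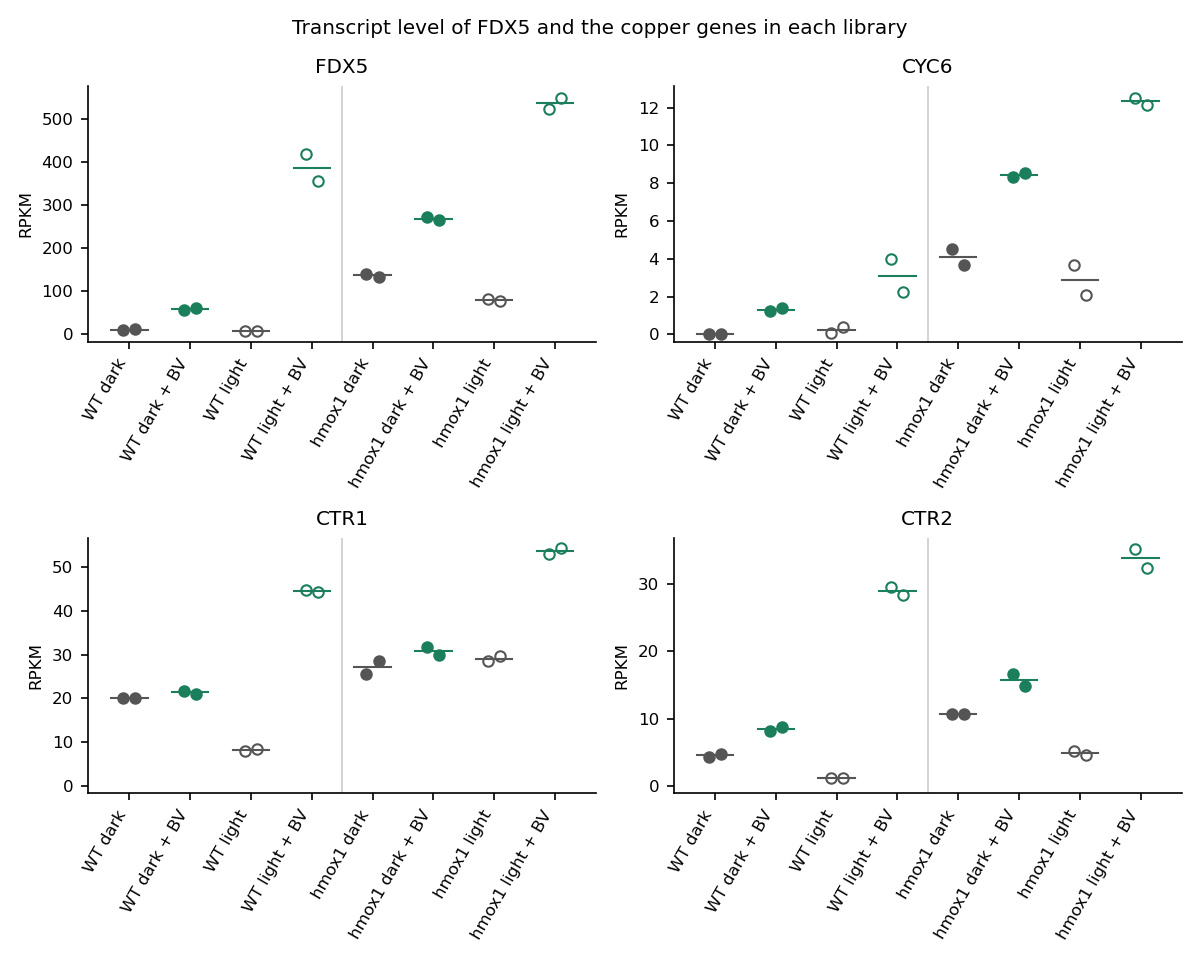
RPKM (linear axes) of FDX5, CYC6, CTR1 and CTR2 in each of the 16 libraries, by group; filled points are dark, open points light, green points with BV, and each short line is the mean of 2 libraries. In light wild type FDX5 stood at 8.43 RPKM without BV and 387.9 RPKM with it, and for all 4 genes the highest group is hmox1 in light with BV.

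BV raised 4 of the 9 tested genes in dark wild type, where 3.74% of all genes were called higher and 5.47% in either direction: FDX5, CTR2, CYC6 and HYDA1. FDX5 rose by 2.40 ± 0.09 (log2 difference ± SE, n = 2 and 2 libraries, limma adjusted p = 1.1e-10), rank 10 of the 13972 tested genes from the highest. The CTR2 level was 4.53 ± 0.310 RPKM (SD, n = 2) untreated and 8.48 ± 0.444 RPKM with BV, a rise of 0.78 in log2 difference (adjusted p = 3.4e-05). HYDA1 rose by 0.28, from 182.6 ± 5.01 to 221.6 ± 3.17 RPKM (adjusted p = 0.026), a call lost when any one of the 4 libraries was left out (adjusted p = 0.19 and 0.071 without replicates 1 and 2 of the untreated group, 0.23 and 0.13 without replicates 1 and 2 of the BV group). CTR1, at 20.1 ± 0.0376 RPKM without BV and 21.4 ± 0.473 RPKM with it, was not called (adjusted p = 0.59), nor were HYDA2, HYDEF, HYDG and PFL1, with log2 differences of 0.01 to 0.33. All 4 hydrogenase and maturation genes had an unadjusted p under 0.05, and HYDEF and HYDG were each called in 5 alternatives (adjusted p = 0.022 to 0.046). The median log2 difference of the 9 genes was 0.28, against -0.02 over all tested genes.

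CYC6 had 0 reads in both libraries of dark wild type without BV, and 53 reads in the 2 libraries with BV, at 1.23 and 1.41 RPKM. Set against a floor of 3 reads over the untreated group, the level with BV was at least 10.6-fold higher, and against 0 reads the exact 95% lower limit of the ratio of read rates was 8.32. The fitted log2 difference of 1.21 depends on the pseudocount (adjusted p = 0.0044). Its call was lost without replicate 2 of dark wild type with BV (adjusted p = 0.053) and with quantile scaling (adjusted p = 0.052). Read intervals and floors cover counting error only.

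In dark hmox1 with BV, where 0.193% of all genes were called higher and 0.322% in either direction, FDX5 and CTR2 were the 2 called of 9. FDX5 rose from 137.5 ± 4.99 to 268.9 ± 5.17 RPKM (log2 difference 0.96, adjusted p = 7.5e-05), rank 14 from the highest. CTR2 rose from 10.7 ± 0.0583 to 15.7 ± 1.25 RPKM (log2 difference 0.51, adjusted p = 0.015). The CTR2 call was lost without replicate 1 (adjusted p = 0.15) or replicate 2 (adjusted p = 0.16) of dark hmox1, or without replicate 1 of dark hmox1 with BV (adjusted p = 0.32). CYC6 was at 4.50 and 3.70 RPKM without BV and at 8.32 and 8.56 RPKM with it, without overlap, as for 35.6% of all tested genes, and was not called (log2 difference 0.89, adjusted p = 0.16). With only the 2 groups in the fit CYC6 was called (adjusted p = 5.3e-04). The 4 hydrogenase and maturation genes lay between -0.02 and 0.02 in log2 difference, none with an unadjusted p under 0.05, and HYDA1 was at 261.7 ± 1.82 RPKM without BV and 264.6 ± 11.2 RPKM with it. The FDX5 response to BV in the dark was smaller in hmox1 than in wild type, with a difference of -1.44 ± 0.13 in log2 units (adjusted p = 1.4e-05), and it was the 1 gene of 9 called in that comparison, in which 0.873% of all genes were called with a smaller response and 0.938% in either direction.

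In light, BV raised 7 of the 9 genes in wild type, where 32.7% of all genes were called higher and 45.6% in either direction. In light hmox1 it raised 8 of 9, where 26.3% were called higher and 37.5% in either direction. The median log2 difference of all genes was 0.13 in each strain, and that of the 9 genes was 1.25 in wild type and 0.86 in hmox1. In wild type the 4 highest differences were those of FDX5, CTR2, CTR1 and CYC6. FDX5 in wild type, at 5.36 ± 0.09 in log2 difference, ranked highest of all tested genes (adjusted p = 5.6e-16). CTR2 was 1.18 and 1.15 RPKM in wild type in light without BV and 29.5 and 28.4 RPKM with it, 24.9-fold in means (log2 difference 3.79, adjusted p = 2.4e-14). CTR1 was 7.98 and 8.48 RPKM without BV and 44.7 and 44.2 RPKM with it, 5.40-fold (log2 difference 2.30, adjusted p = 1.4e-12). CYC6 had 4 reads without BV and 101 with it, a ratio of read rates of 18.4 with a 95% exact interval of 6.97 to 68.8 (log2 difference 1.71, adjusted p = 2.4e-05). For each of these 4 genes, both libraries with BV lay above both without. The groups did not overlap for 66.0% of all tested genes in this comparison.

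The same 4 genes rose with BV in light in hmox1, from higher levels without BV. FDX5 rose 6.68-fold (log2 difference 2.73, adjusted p = 3.3e-12), rank 6 from the highest. CTR2 rose 6.85-fold, from 4.94 ± 0.379 to 33.8 ± 1.98 RPKM (log2 difference 2.55), and CTR1 1.85-fold, from 29.0 ± 0.795 to 53.7 ± 0.998 RPKM (log2 difference 0.86). CYC6 rose from 2.88 ± 1.11 to 12.3 ± 0.253 RPKM (log2 difference 1.81, adjusted p = 2.3e-05). For FDX5, CTR1 and CTR2 the strains were closer in fitted log2 level in light with BV than without it. In mean RPKM, CYC6 was 0.238 in light wild type and 2.88 in light hmox1 without BV, against 3.11 and 12.3 with BV. The response in hmox1 minus that in wild type was -2.64 for FDX5, -1.44 for CTR1 and -1.24 for CTR2 in log2 units (adjusted p = 2.9e-09, 2.1e-07 and 9.8e-06). For CYC6 that difference was 0.10 ± 0.30 and was not called, and it depends on the pseudocount. It was -1.31 with a pseudocount of 0.1 (adjusted p = 0.25) and -1.85 with limma-voom on recovered reads (adjusted p = 0.10). In that comparison of responses 4 of 9 genes were called with a smaller and 1 with a larger response in hmox1, against 6.11% and 2.45% of all tested genes and 8.56% in either direction.

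The hydrogenase genes differed in their response to BV in light. HYDA1, the more abundant hydrogenase, rose in wild type from 8.78 ± 0.549 to 22.3 ± 0.924 RPKM (log2 difference 1.25, adjusted p = 7.9e-10) and from 52.4 ± 3.14 to 93.4 ± 1.15 RPKM in hmox1 (log2 difference 0.82, adjusted p = 1.4e-07). HYDA2 was 1.01 and 0.789 RPKM in light wild type and 0.697 and 0.540 RPKM with BV, a log2 difference of -0.23 that was not called (adjusted p = 0.084), but was with a pseudocount of 0.1 (-0.48, adjusted p = 0.011), median-ratio scaling (-0.41, adjusted p = 0.0085) and quantile scaling (-0.45, adjusted p = 0.0035). In hmox1 HYDA2 rose from 2.24 ± 0.360 to 3.65 ± 0.197 RPKM (log2 difference 0.53, adjusted p = 9.6e-04). The difference between strains in the HYDA2 response was itself called, at 0.76 ± 0.15 in log2 units (adjusted p = 0.0042).

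HYDEF, which joins the maturation proteins HydE and HydF in a single polypeptide, was 0.463 and 0.256 RPKM in light wild type and rose to 1.11 and 1.71 RPKM when BV was present (log2 difference 0.82, adjusted p = 2.4e-05). In light hmox1 it rose from 1.62 and 1.57 RPKM to 5.33 and 5.93 RPKM (log2 difference 1.35, adjusted p = 1.7e-07). The pseudocount of 1 shrinks the wild-type difference more, since those levels are lower. The difference between strains in the HYDEF response was not called. It was called in 5 alternatives, at 0.53 to 0.72, and was -0.00899 with limma-voom on recovered reads (adjusted p = 0.99). HYDG, which supplies the remaining maturation enzyme, rose in wild type from 13.0 ± 0.224 to 16.7 ± 0.630 RPKM (log2 difference 0.34, adjusted p = 0.0013), a call lost with median-ratio scaling (0.09, adjusted p = 0.41) and with only the 2 groups in the fit (adjusted p = 0.061). In hmox1 it rose from 17.8 ± 1.79 to 27.6 ± 1.20 RPKM (log2 difference 0.60, adjusted p = 1.1e-05). PFL1 was not called for BV in any of the 4 comparisons on the authors' scaling. In light wild type with BV its libraries stood apart, at 230.0 and 306.6 RPKM, and without the first of them the difference was called (0.45, adjusted p = 4.1e-04, against 0.24 and 0.068 with it), as it was with quantile scaling (adjusted p = 0.0056) and limma-voom on recovered reads (0.045).

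**Figure D2:**
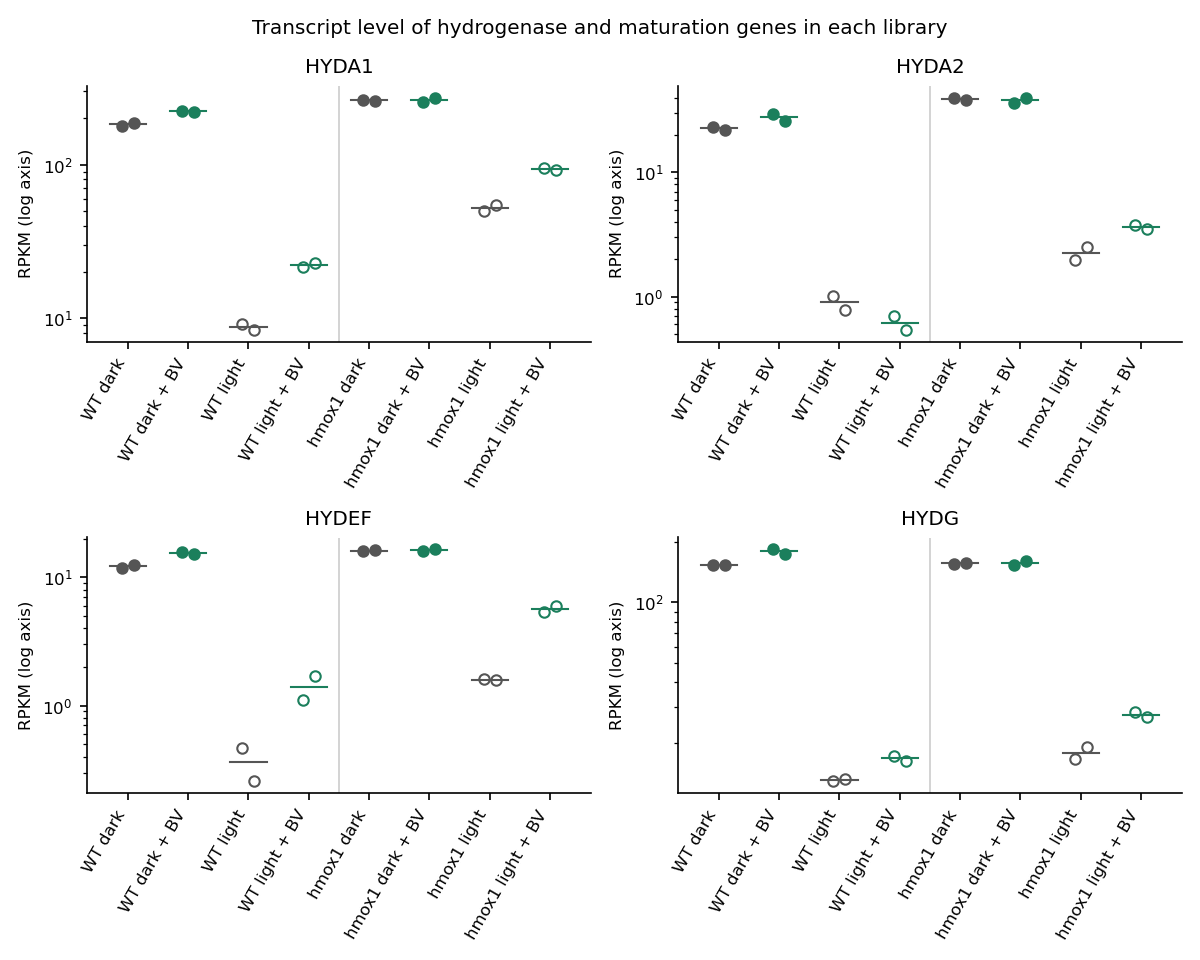
RPKM (log axes) of HYDA1, HYDA2, HYDEF and HYDG in each of the 16 libraries, by group; filled points are dark, open points light, green points with BV, and each short line is the mean of 2 libraries. All dark libraries lie above all light libraries for each gene, and among light groups the highest is hmox1 with BV. Within a strain and treatment, dark and light libraries did not overlap, in either direction, for 81.6% to 91.1% of all tested genes.

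Light lowered all 4 hydrogenase and maturation genes in every strain and treatment, against a background in which most genes changed. Without BV in wild type, 84.0% of all tested genes were called in either direction and 63.1% were called lower, and 8 of the 9 genes were called lower. The median log2 difference of all genes was -0.57 there, -0.37 in wild type with BV, -0.35 in hmox1 and -0.16 in hmox1 with BV. The light differences, calls and shares given here are not shifted by those medians, which stand beside them for comparison. HYDA1 in wild type fell by 4.23 ± 0.07 in log2 difference, from 182.6 ± 5.01 to 8.78 ± 0.549 RPKM (adjusted p = 1.1e-16). HYDA2, HYDG and HYDEF fell by 3.64, 3.47 and 3.28. The 4 genes were left with 2.95% (HYDEF) to 8.45% (HYDG) of their dark RPKM. CYC6, with 0 reads in the dark and 4 in light, was the 1 gene of 9 not called (adjusted p = 0.21), though it was called higher with a pseudocount of 0.1 (adjusted p = 0.010) and with quantile scaling (adjusted p = 0.017).

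The share of the dark level that remained after 30 min of light is given here as a ratio of mean RPKM. Whether the change with light differed between strains was not tested. The median log2 difference of all genes with light also rose over the 4 conditions, from -0.57 in wild type to -0.16 in hmox1 with BV. For HYDA1 it was 4.81% in wild type, 10.1% in wild type with BV, 20.02% in hmox1 and 35.3% in hmox1 with BV. For HYDEF it was 2.95%, 9.07%, 9.88% and 34.4% in the same order. HYDG kept 8.45%, 9.31%, 11.4% and 17.5%, and its BV response in wild type was not called different between light and dark. HYDA2 kept 3.97%, 2.23%, 5.79% and 9.58%, so it was the gene with the lowest share in 3 of the 4 conditions and the one whose share was lower with BV in wild type. The BV response of HYDA1 was larger in light than in the dark in both strains, by 0.98 ± 0.10 in wild type and 0.81 ± 0.10 in hmox1 (adjusted p = 1.7e-06 and 2.1e-05). That of HYDA2 was lower in light in wild type, by -0.51 ± 0.15, and higher in light in hmox1, by 0.55 ± 0.15 (adjusted p = 0.015 and 0.014). The HYDA2 calls were lost in wild type without replicate 2 of the dark group (adjusted p = 0.054), replicate 1 of the light group (0.062) or replicate 1 of the dark BV group (0.081), and in hmox1 without replicate 1 of the light group (0.084), the dark group (0.050), the dark BV group (0.066) or the light BV group (0.056), and with median-ratio (0.14) and quantile scaling (0.17).

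**Figure D3:**
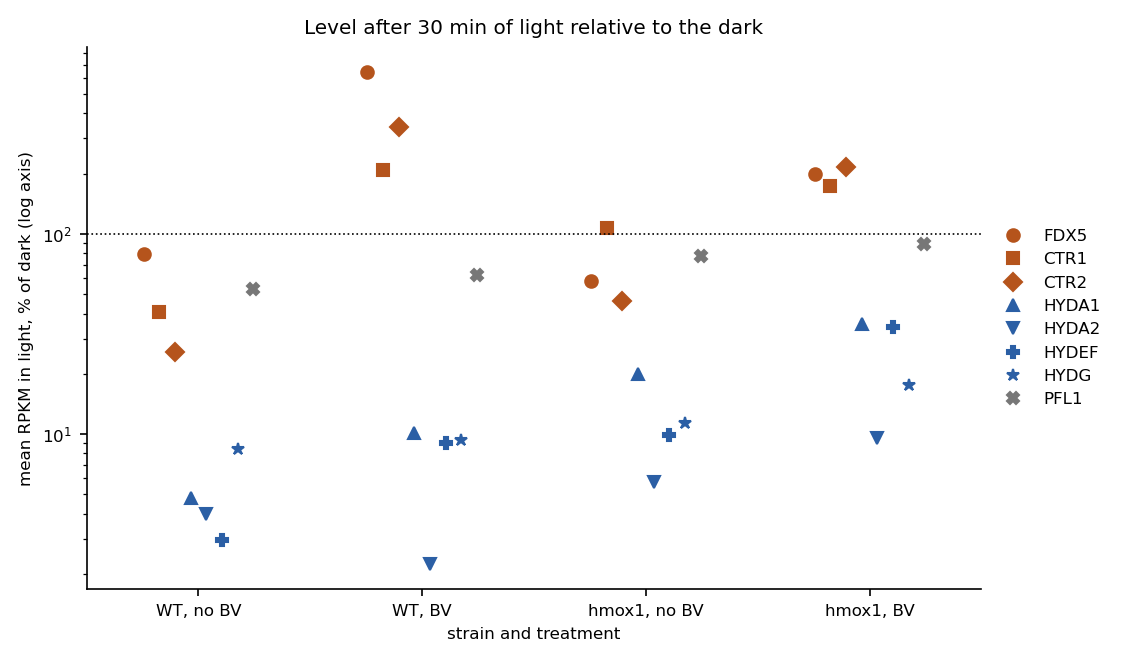
Mean RPKM in light as a percentage of mean RPKM in the dark (log axis) for 8 genes in the 4 combinations of strain and BV; orange marks FDX5, CTR1 and CTR2, blue the hydrogenase and maturation genes, grey PFL1, and the dotted line equal levels. Blue points lie between 2.23% and 35.3%, and the orange points lie above 100% in both BV conditions; CYC6 is left out because dark wild type had 0 reads.

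Ratios between partner genes are given as ratios of mean RPKM, and no ratio was tested. HYDA1 was 6.76 to 8.07 times as abundant as HYDA2 per length in the 4 dark groups. In light the ratio of means was 9.76 in wild type, 36.1 in wild type with BV, 23.4 in hmox1 and 25.6 in hmox1 with BV. HYDEF and HYDG stand next to each other in the RefSeq gene order, and HYDG was 9.61 to 12.6 times as abundant as HYDEF in the dark groups. In light that ratio was 36.0 in wild type (27.6 and 51.3 in the 2 libraries), where HYDEF had 63 reads, and 4.89 in hmox1 with BV. It was 11.9 in wild type with BV (15.5 and 9.54 in the 2 libraries) and 11.2 in hmox1, both within the range of the dark groups.

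The change of FDX5 and the copper transporters with light differed with BV. With BV, all 4 of FDX5, CYC6, CTR1 and CTR2 rose with light in wild type and the other 5 genes fell, where 23.4% of all genes were called higher, 55.5% lower and 78.9% in either direction. FDX5 rose 6.47-fold (log2 difference 2.67), CTR2 3.41-fold (1.66), CTR1 2.08-fold (1.02) and CYC6 2.36-fold (0.79, adjusted p = 0.0037). The CYC6 call was lost without replicate 1 of light wild type with BV (0.48, adjusted p = 0.054). In hmox1 with BV, FDX5 rose 2.00-fold, CTR2 2.16-fold and CTR1 1.74-fold with light, 3 genes called higher of 9 and 4 called lower where 20.4% of all genes were called higher, 40.9% lower and 61.4% in either direction, and CYC6 was not called (log2 difference 0.50, adjusted p = 0.055), though it was in 9 alternatives (adjusted p = 3.9e-04 to 0.049).

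Without BV, CTR1 and CTR2 fell with light in wild type, by 1.20 and 1.35 in log2 difference, to 40.9% and 25.6% of the dark RPKM. FDX5 was lower in light by 0.29 in log2 difference (adjusted p = 0.0096), less than the median fall of all genes. With median-ratio scaling, which scales each library by genes above 0 RPKM in all 16 libraries, the FDX5 difference became 0.46 in the other direction. The FDX5 call was also lost without replicate 2 of dark wild type (adjusted p = 0.20), without replicate 2 of light wild type (0.067), with quantile scaling (0.63) and with limma-voom on the reads recovered from the RPKM steps (0.088). In hmox1 without BV, where 55.2% of all genes were called lower and 76.5% in either direction, 7 of the 9 genes fell. FDX5 fell to 58.5% and CTR2 to 46.3% of the dark RPKM, while CTR1 was 27.1 ± 2.09 RPKM in the dark and 29.0 ± 0.795 RPKM in light and was not called (adjusted p = 0.23), though it was called higher with median-ratio scaling (0.53, adjusted p = 3.9e-05).

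PFL1 was the most abundant of these genes in all groups except the 2 in light with BV, where FDX5 was higher. With light it fell in wild type from 425.1 ± 4.28 to 225.0 ± 17.8 RPKM (log2 difference -0.92), from 428.1 ± 21.1 to 268.3 ± 54.1 RPKM in wild type with BV (-0.69), and from 508.2 ± 26.3 to 392.7 ± 25.8 RPKM in hmox1 (-0.37, adjusted p = 0.0038). It was not called in hmox1 with BV (-0.17, adjusted p = 0.16), though it was with quantile scaling (adjusted p = 0.0061) and with only the 2 groups in the fit (0.029). With median-ratio scaling the falls in wild type were not called, with or without BV (-0.10 and -0.16, adjusted p = 0.24 and 0.080), and the hmox1 values became 0.08 without BV and 0.03 with BV.

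**Figure D4:**
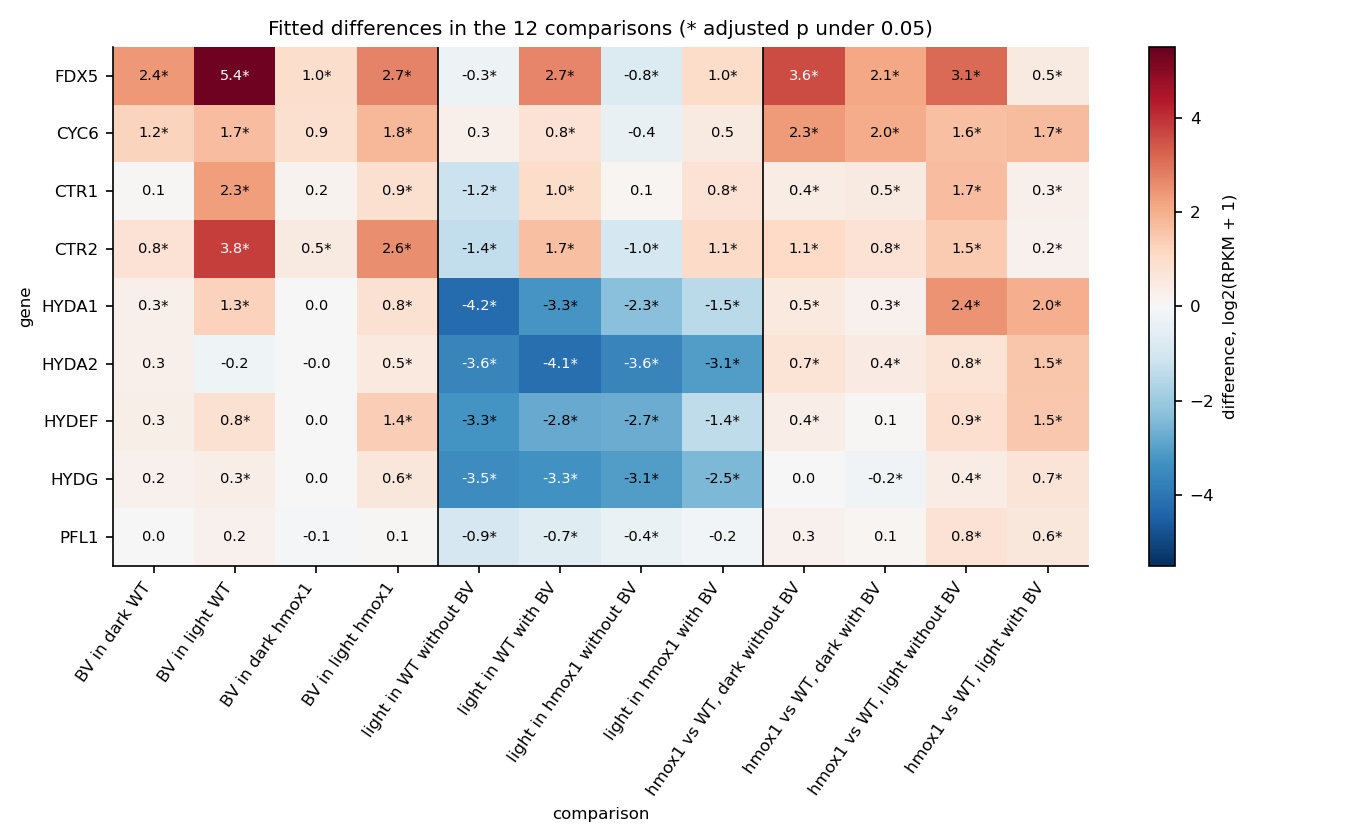
Fitted log2(RPKM + 1) differences of the 9 tested genes (rows) in the 12 comparisons of 2 groups (columns: 4 of BV, 4 of light, 4 of strain), in red where higher and blue where lower, with an asterisk at adjusted p under 0.05. The largest positive value is FDX5 for BV in light wild type (5.36) and the lowest is HYDA1 for light in wild type without BV (-4.23).

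Without any BV, the hmox1 mutant already carried more of most of these transcripts than wild type. In the dark 7 of 9 genes were called higher, where 26.5% of all genes were called higher and 35.0% in either direction. Between strains the median log2 difference of all genes was 0.12 in the dark and 0.29 in light, with or without BV. FDX5 was 13.0-fold higher (log2 difference 3.59 ± 0.09, adjusted p = 2.1e-13), rank 4 from the highest. CTR2 was 2.35-fold higher (1.08, adjusted p = 1.1e-07) and CTR1 1.34-fold (0.41, adjusted p = 5.0e-04). CYC6, at 0 reads in wild type and 120 in hmox1, was at least 31.4-fold higher against the floor of 3 reads over the group, and the exact 95% lower limit against 0 reads was 25.2. HYDA2 was 1.71-fold and HYDA1 1.43-fold higher, and HYDEF 1.32-fold (log2 difference 0.38, adjusted p = 0.017). The HYDEF call was lost without replicate 1 of dark wild type (adjusted p = 0.090), without replicate 1 (0.060) or 2 (0.081) of dark hmox1, with a pseudocount of 0.1 (0.13) and with median-ratio scaling (0.13). HYDG, with 153.3 ± 0.696 RPKM for wild type and 156.7 ± 0.752 RPKM for hmox1, and PFL1 were not called, though PFL1 was in 5 alternatives (adjusted p = 0.0059 to 0.038).

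In light without BV all 9 genes were called higher in hmox1, where 53.5% of all genes were called higher and 61.2% in either direction, with a median of 1.46 in log2 difference against 0.29 for all genes. FDX5 was 9.55-fold, HYDA1 5.97-fold, HYDEF 4.43-fold, CTR2 4.25-fold, CTR1 3.53-fold and HYDA2 2.49-fold higher in means. CYC6 had 4 reads in wild type and 113 in hmox1, a ratio of read rates of 15.5 with a 95% exact interval of 5.88 to 57.8. PFL1 was 1.75-fold higher (0.80, adjusted p = 1.1e-05). HYDG was 1.37-fold higher (0.43, adjusted p = 1.6e-04), a call lost with quantile scaling (0.16, adjusted p = 0.089) and of the other sign with median-ratio scaling (-0.06).

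With BV the strain difference in the dark was called higher in hmox1 for 6 genes and lower for HYDG, where 30.3% of all genes were called higher, 12.3% lower and 42.7% in either direction. FDX5 was 4.49-fold, CYC6 6.39-fold, CTR2 1.85-fold, CTR1 1.44-fold and HYDA2 1.37-fold higher, while HYDEF and PFL1 were not called (log2 differences 0.07 and 0.12). HYDG had a log2 difference of -0.19, with 157.3 ± 5.48 RPKM for hmox1 against 179.7 ± 6.43 RPKM for wild type, and an adjusted p of 0.049 that rose above 0.05 in 15 of the alternatives tried, among them each library of both groups left out (adjusted p = 0.081 to 0.26). HYDA1 was higher by 0.25 (adjusted p = 0.0070), a call lost without replicate 2 of wild type (0.053) or of hmox1 (0.074) and with median-ratio and quantile scaling (0.18 and 0.77).

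In light with BV all 9 genes were called higher in hmox1, where 52.2% of all genes were called higher and 61.4% in either direction, but median-ratio scaling left 5 of the 9. HYDA2 was 5.90-fold, HYDA1 4.19-fold, HYDEF 4.00-fold and CYC6 3.97-fold higher, and HYDG 1.65-fold and PFL1 1.54-fold. The PFL1 call was lost with median-ratio scaling (adjusted p = 0.069), and the CTR1 call with quantile scaling (0.085) and only the 2 groups in the fit (0.063). FDX5 was 1.39-fold higher (log2 difference 0.47, adjusted p = 4.8e-04). With median-ratio scaling it was 0.02 (adjusted p = 0.92), and CTR1 and CTR2 turned from 0.27 and 0.22 to -0.18 and -0.23. The CTR2 call (adjusted p = 0.047) was also lost in 15 of the alternatives, among them each of the 4 libraries left out (adjusted p = 0.053 to 0.26).

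The BV response was larger in light than in the dark for most of these genes. In wild type 5 of 9 were called with a larger response in light and 1 with a smaller one, against 22.3% and 9.17% of all genes and 31.4% in either direction, and in hmox1 8 of 9 were called larger against 15.9% and 22.7% in either direction. The difference was 2.96 for FDX5, 3.01 for CTR2 and 2.22 for CTR1 in wild type, and 1.76, 2.04 and 0.68 in hmox1, all in log2 units. For HYDEF it was 0.49 in wild type (adjusted p = 0.029) and 1.33 in hmox1 (adjusted p = 2.3e-05). HYDEF was at 0.360 RPKM (63 reads) in light wild type without BV, where the pseudocount of 1 shrinks differences. The HYDEF values of the strains are therefore not compared here. The HYDEF call in wild type was lost without replicate 2 of the dark (adjusted p = 0.083), light (0.12), dark BV (0.088) or light BV group (0.11), without replicate 1 of the dark BV group (0.062), with quantile scaling (0.32) and with only these groups in the fit (0.091). For CYC6 the difference was 0.50 in wild type (adjusted p = 0.23) and 0.92 in hmox1 (adjusted p = 0.042), and the latter call was lost in 15 alternatives (adjusted p = 0.053 to 0.35), among them each hmox1 library left out except replicate 1 of the light group.

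HCP4 had 31 reads over all 16 libraries, with 0 to 7 reads and at most 0.301 RPKM in any of them. Its group means ran from 0 RPKM in light wild type to 0.270 ± 0.0431 RPKM in dark hmox1 with BV. No difference was tested, and at this depth no level could be compared.

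Across the 8 group means of log2(RPKM + 1), the 9 tested genes fell into 2 patterns, with PFL1 nearer to one of them. Pearson's r was 0.787 to 0.935 for the 6 pairs among FDX5, CYC6, CTR1 and CTR2, and 0.915 to 0.983 for the 6 pairs among HYDA1, HYDA2, HYDEF and HYDG. It was -0.0483 to 0.328 for the 16 pairs between them. PFL1 had an r of 0.786 to 0.960 with the hydrogenase genes and 0.290 to 0.408 with the others. These values describe 8 means that share libraries and scaling. FDX5 was 0.0578 times as abundant as HYDA1 in dark wild type, 17.4 times in light wild type with BV and 5.75 times in light hmox1 with BV.

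Among tested genes outside the selection, those most like FDX5 over the 8 group means were Cre03.g179500 (Pearson's r = 0.963), Cre16.g688600 (0.941) and Cre08.g372200 (0.936). Those most like CYC6 were Cre16.g657200 (0.962), Cre03.g179500 (0.959) and Cre16.g657250 (0.938), so Cre03.g179500 appears beside both. Those most like HYDA1 were Cre02.g102950 (0.998), Cre03.g186300 (0.997) and Cre04.g219936 (0.996). They were chosen from 1872 genes with a group mean of at least 5 RPKM and a span of at least 2 log2 units. Cre08.g372200 ran from 9.26 RPKM in light wild type to 646.9 RPKM in light hmox1 with BV.

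Other genes of these pathways were counted from 3 lists of identifiers, none of which is paired with a name in the sources used here. Of 5 further copper-related identifiers, 4 were in the table and were tested. With BV in light, 2 of the 4 rose in each strain and the other 2 were not called, where 32.7% of all genes rose in wild type and 26.3% in hmox1, with log2 differences of -0.04 to 2.27 in wild type and -0.02 to 1.57 in hmox1. The 2 that rose, Cre02.g085450 and Cre07.g346050, are named here after their values were seen. Cre07.g346050 was at 260.3 ± 6.81 RPKM in dark wild type, 81.2 ± 4.35 RPKM in light and 395.4 ± 33.6 RPKM in light with BV, and Cre02.g085450 was at 130.4 ± 6.85, 64.4 ± 3.52 and 203.5 ± 9.53 RPKM. Both also fell with light without BV, rose with light with BV and were higher in hmox1 in all 4 conditions, where 26.5% to 53.5% of all genes were called higher. In each of those conditions 1 other of the 4 was called lower in hmox1 (log2 differences -0.76 to -0.32), and 1 was not called. Of all genes, 35.0% to 61.4% were called there in either direction, and 12.3% were called lower in the dark with BV. In the dark neither Cre02.g085450 nor Cre07.g346050 was called for BV in either strain (log2 differences 0.06 to 0.20). In dark wild type 1 of the 4 listed genes was called, lower, where 5.47% of all genes were called in either direction. None of the 4 was called for BV in dark hmox1, where 0.322% of all genes were called in either direction. There, 1 of the 4 had an unadjusted limma p under 0.05.

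Of 4 further fermentation-related identifiers, 3 were tested, and all 3 fell with light in each of the 4 conditions, by 0.87 to 2.29 in log2 difference. Between 40.9% and 63.1% of all genes were called lower in those conditions. BV raised 1 of the 3 in dark hmox1, where 0.193% of all genes were called higher, and 1 of the 3 in light hmox1, where 26.3% were. In wild type it changed none of them by limma, where 5.47% of all genes were called in the dark and 45.6% in light, in either direction. At an unadjusted limma p under 0.05 there was 1 of the 3 in the dark and 0 in light. Of 5 other ferredoxin identifiers, all were tested. None was called for BV in the dark in either strain, with log2 differences of -0.20 to 0.10. Of all genes, 5.47% were called there in wild type and 0.322% in hmox1, in either direction. With BV in light 2 of 5 rose in each strain, by 0.48 to 1.05, where 32.7% and 26.3% of all genes did. At an unadjusted p under 0.05, limma gave 1 of the 5 in dark wild type and 0 of 5 in dark hmox1.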

How the data were processed

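The authors deposited 1 table of 17301 genes by 16 libraries. No unit stands in its header, and RPKM was inferred from the deposited values, whose steps each correspond to 1 read of a gene in a library. Whole reads were recovered from those RPKM steps for 16851 of 16852 genes above 0 (tolerance 0.1 reads), with 99.87% of values within 0.01 of a whole read. Bowtie is named in the submitters' processing notes, and single-end sequencing in the labels' protocols. The build, annotation, counting tool and the handling of strand and of multiply mapped reads were not given in the sources used here. No coordinates are therefore printed, and the paralogs HYDA1 and HYDA2 or CTR1 and CTR2, and overlapping genes, could share reads.

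Groups came from the library titles. limma (version 3.58.1, in R 4.3.3) was fitted to log2(RPKM + 1) with 1 mean per group (8 residual degrees of freedom) and moderation that was robust and followed the mean trend. p-values were adjusted by Benjamini-Hochberg over 13972 genes within each of 16 comparisons, 12 between 2 groups and 4 between effects. Read-rate ratios have exact (Clopper-Pearson) 95% intervals, and a group without reads was set to a floor of 3 reads. The model was tested on simulated data. The text names genes of the selection, and the 3 most similar genes by identifier for FDX5, CYC6 and HYDA1. The genes and lists were chosen with earlier results of these data known, so they give no independent support. There were 24 alternative settings, 16 of them leaving out 1 library. Identifiers were matched to the RefSeq table of assembly v5.5, which held 12666 of them and all 10 genes, for gene order only. Promoter motifs, protein relatives and sequences were not analysed here.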

Additional observations from a re-analysis of the deposited data

Results flagged for a closer look

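Responses to BV that differed between light and dark, or between strains, are collected here as log2 differences ± SE with limma adjusted p (2 libraries in each of 4 groups). In wild type the response was larger in light than in the dark for CTR2 by 3.01 ± 0.13 (limma adjusted p = 1.2e-10), FDX5 by 2.96 ± 0.13 (2.7e-10), CTR1 by 2.22 ± 0.11 (5.8e-10), HYDA1 by 0.98 ± 0.10 (1.7e-06) and HYDEF by 0.49 ± 0.16 (0.029), and smaller for HYDA2, at -0.51 ± 0.15 (0.015). In hmox1 it was larger in light for 8 genes. These were CTR2 by 2.04 ± 0.13 (1.6e-08), FDX5 by 1.76 ± 0.13 (1.7e-07), HYDEF by 1.33 ± 0.16 (2.3e-05), CYC6 by 0.92 ± 0.30 (0.042), HYDA1 by 0.81 ± 0.10 (2.1e-05), CTR1 by 0.68 ± 0.11 (2.6e-04), HYDG by 0.60 ± 0.11 (7.1e-04) and HYDA2 by 0.55 ± 0.15 (0.014).

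Between strains, the response to BV in the dark was smaller in hmox1 for FDX5, at -1.44 ± 0.13 (adjusted p = 1.4e-05). In light it was smaller in hmox1 for FDX5, at -2.64 ± 0.13 (2.9e-09), CTR1, at -1.44 ± 0.11 (2.1e-07), CTR2, at -1.24 ± 0.13 (9.8e-06), and HYDA1, at -0.43 ± 0.10 (0.011), and larger for HYDA2, at 0.76 ± 0.15 (0.0042). The HYDA1 call was lost without replicate 2 of light wild type (0.054), without replicate 2 of light hmox1 (0.068), with quantile scaling (0.29) and with only these groups in the fit (0.081). FDX5 without BV already stood at 137.5 RPKM in dark hmox1 and at 10.6 RPKM in dark wild type, and the part of that starting level in the smaller response was not tested. Calls of single genes that were lost when 1 library was left out are named with each result above. Calls gained when 1 library was left out are named for only some of the genes.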

How the results depend on the processing

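Over 24 alternatives, 379 of 384 counts of genes called stayed within 1.5 times the reported count. The exceptions were BV in dark wild type, 4 genes reported and 2 to 6 when 1 library was left out, BV in dark hmox1, 2 reported and 1 to 3, and hmox1 against wild type in light with BV, 9 reported and 5 with median-ratio scaling. The correlation of deviations of same-numbered libraries was over 0.1 in 10 of 28 group pairs (range -0.15 to 0.27), so the numbers were not taken to pair them. With a replicate block, 8 genes instead of 7 were called for BV in light wild type, 6 instead of 5 for the strain difference in that response, 8 instead of 7 for the strain in the dark, and no count moved by over 1.5 times. The block called PFL1 for BV in light wild type (adjusted p = 0.033) and for the strain in the dark (0.031), and HYDEF for the strain difference in the BV response in light (0.044). Counts over all genes moved further, from 221 to 1362 for BV in dark wild type (764 reported), from 21 to 82 for BV in dark hmox1 (45), from 591 to 2109 and from 55 to 178 for the strain difference in the BV response in light (1196) and in the dark (131), down to 3183 for BV in light hmox1 (5238), 1960 for BV by light in hmox1 (3171) and 5617 for the strain in light (8557).

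Single values that changed sign lay mostly near 0, and the cause was not tested. With median-ratio scaling the BV values of PFL1 in light became -0.0318 in wild type and -0.13 in hmox1, and of HYDA2 in dark hmox1 0.0137. Light values became 0.46 for FDX5 in wild type, and 0.0764 and 0.0332 for PFL1 in hmox1 without and with BV. Strain values became -0.12 for HYDG in the dark, -0.0514 and -0.0130 for HYDEF and PFL1 in the dark with BV, -0.0635 for HYDG in light, and -0.18 and -0.23 for CTR1 and CTR2 in light with BV. Differences of responses became -0.15 for HYDG and -0.0559 for PFL1 in wild type, -0.0431 for PFL1 in hmox1 and -0.23 for CYC6 between strains in light. With quantile scaling they were 0.0179 for HYDA2 with BV in dark hmox1, 5.8e-04 for CYC6 and -0.0816 for CTR1 with light in hmox1, -0.0965 for HYDG between strains in the dark, -0.0750 and -0.0949 for HYDEF and PFL1 in the dark with BV, -0.0440 for HYDG (BV by light, wild type) and 0.11 for CYC6 (strain by BV, dark). A pseudocount of 0.1 gave CYC6 -0.40 for BV by light in wild type and -1.31 for strain by BV in light, and voom gave -0.88 and -1.85, with -0.00899 for HYDEF in the latter. Leaving out 1 library gave -0.0408 to 0.0596 for PFL1 with BV in dark wild type. In dark hmox1 with BV it gave -0.0897 to 0.0459 for HYDA2, -0.0277 to 0.0584 for HYDA1 and -0.0301 to 0.0406 for HYDG. For strain by BV in light it gave -0.22 to 0.41 for CYC6 and -0.37 to 0.0394 for PFL1. CYC6 and HCP4 are limited by depth, since CYC6 had 0 and 4 reads in the 2 wild-type groups without BV.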

Other observations

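The gene after HYDEF in the RefSeq order, Cre06.g296800, was at 9.04 RPKM in dark wild type and 0.573 RPKM in light, and at 11.1 and 0.663 RPKM with BV. In hmox1 it was at 3.35 RPKM in the dark and 0.775 RPKM in light, and at 3.54 and 0.682 RPKM with BV, all as means of 2 libraries, and was chosen after its values were seen. The genes on either side of FDX5 stayed at 2.50 RPKM or lower in all 8 group means.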
